A study of Homo sapiens with 15 samples.

Results

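G0S2 and the genes of lipid droplet lipolysis were followed across the 15 RNA-seq libraries of the series. The 9 genes were taken by symbol from the deposited count table of HEK293T, which holds 62703 genes. They are the inhibitors G0S2 and HILPDA, the lipases PNPLA2 and LIPE, the co-activator ABHD5, the coat proteins PLIN2 and PLIN3, and the synthesis enzymes DGAT1 and DGAT2. All but DGAT1 also stand in the HuCCT1 table and passed the filter on low counts in both lines, so 8 of 9 could be followed throughout. G0S2 was selected on its CPM levels and fold changes in these libraries, which are therefore given as a description with no test; the other members are known to act beside it, and they too were picked with results of these libraries known.

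A lipid droplet stores fatty acids as triglyceride behind a coat of perilipins. PNPLA2, also called ATGL, removes the first fatty acid from triglyceride, ABHD5 (CGI-58) activates it, and G0S2 and HILPDA bind and inhibit it. LIPE, the hormone-sensitive lipase, acts on the diglyceride that remains, and DGAT1 and DGAT2 make triglyceride from diglyceride. The set is best known from fat, muscle and liver, and most cultured cells keep a few droplets.

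The study knocked out genes with CRISPR-Cas9 in HEK293T, an embryonic kidney line that carries a viral large T antigen, and in HuCCT1, a bile duct cancer line. Groups of 3 libraries each were HEK293T SNRPD2KO, HEK293T PUS7KO and HEK293T Ctrl, and HuCCT1 SNRPD2KO and HuCCT1 Ctrl. SNRPD2 encodes SMD2, a core protein of the splicing machinery, and PUS7 is an enzyme that turns uridine in RNA into pseudouridine. The series asks how the modification and SMD2 act together in cells and in cancer. The labels do not say whether a knockout is 1 clone or a pool, what the control cells received, or whether replicates came from separate cultures, so p-values measure the spread between these libraries, which may be technical. Without cell numbers, fewer cells and less RNA per cell cannot be told apart.

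Total counts were 7944276 to 11270267 in HEK293T and 13776166 to 16795618 in HuCCT1, and protein-coding genes took 61.7 to 68.8% and 93.6 to 95.3% of them. HEK293T Ctrl libraries had the lowest totals of their line, 7944276 to 9202622, and the most genes with a count, 29551 to 30073, against 24947 to 27460 in the libraries labelled SNRPD2KO and PUS7KO; the part of this in the results was not tested. PUS7 RNA averaged 16.0 ± 2.24 CPM (counts scaled to the library total) in PUS7KO and 26.5 ± 0.510 in HEK293T Ctrl (SD, n = 3 each; log2 fold change -0.72, edgeR adjusted p = 6.7e-05). SNRPD2 RNA went against its labels: it averaged 280.4 ± 31.9 CPM in the HEK293T libraries labelled SNRPD2KO and 182 ± 13.6 CPM in HEK293T Ctrl (log2 fold change 0.62, edgeR adjusted p = 4.9e-05), with 260.5 ± 22.6 CPM in PUS7KO. In HuCCT1 it averaged 288 ± 29.4 CPM in the libraries labelled SNRPD2KO and 154.5 ± 7.30 CPM in Ctrl (log2 fold change 0.90, edgeR adjusted p = 1.8e-06). Every direction given for SNRPD2KO is that of the labelled groups. In both lines the labels tie SNRPD2KO to count columns headed C and Ctrl to columns headed S. PUS7KO has columns headed P. The sources used here do not settle whether the SNRPD2KO and Ctrl labels were exchanged. If they were, every difference of SNRPD2KO minus Ctrl, and that between the lines, would change its sign. G0S2 would then be 11.1-fold lower, not higher, in HEK293T SNRPD2KO. PUS7KO minus Ctrl would set one knockout against the other, and SNRPD2KO minus PUS7KO would set the control against PUS7KO. All 8 bile duct markers were above 1 CPM on average in HuCCT1, but 5 of the 8 (not KRT7, KRT19 or MUC1) were in HEK293T too. Of 6 HEK293T markers, 5 (not PAX2) were above 1 CPM in HEK293T. In HuCCT1, 1 of the 6 was, CDH2, at 196 ± 9.48 CPM in SNRPD2KO and 171 ± 2.53 in Ctrl. The 8 adipocyte markers summed to between 0.572 and 4.91 CPM in every library.

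**Figure D1:**
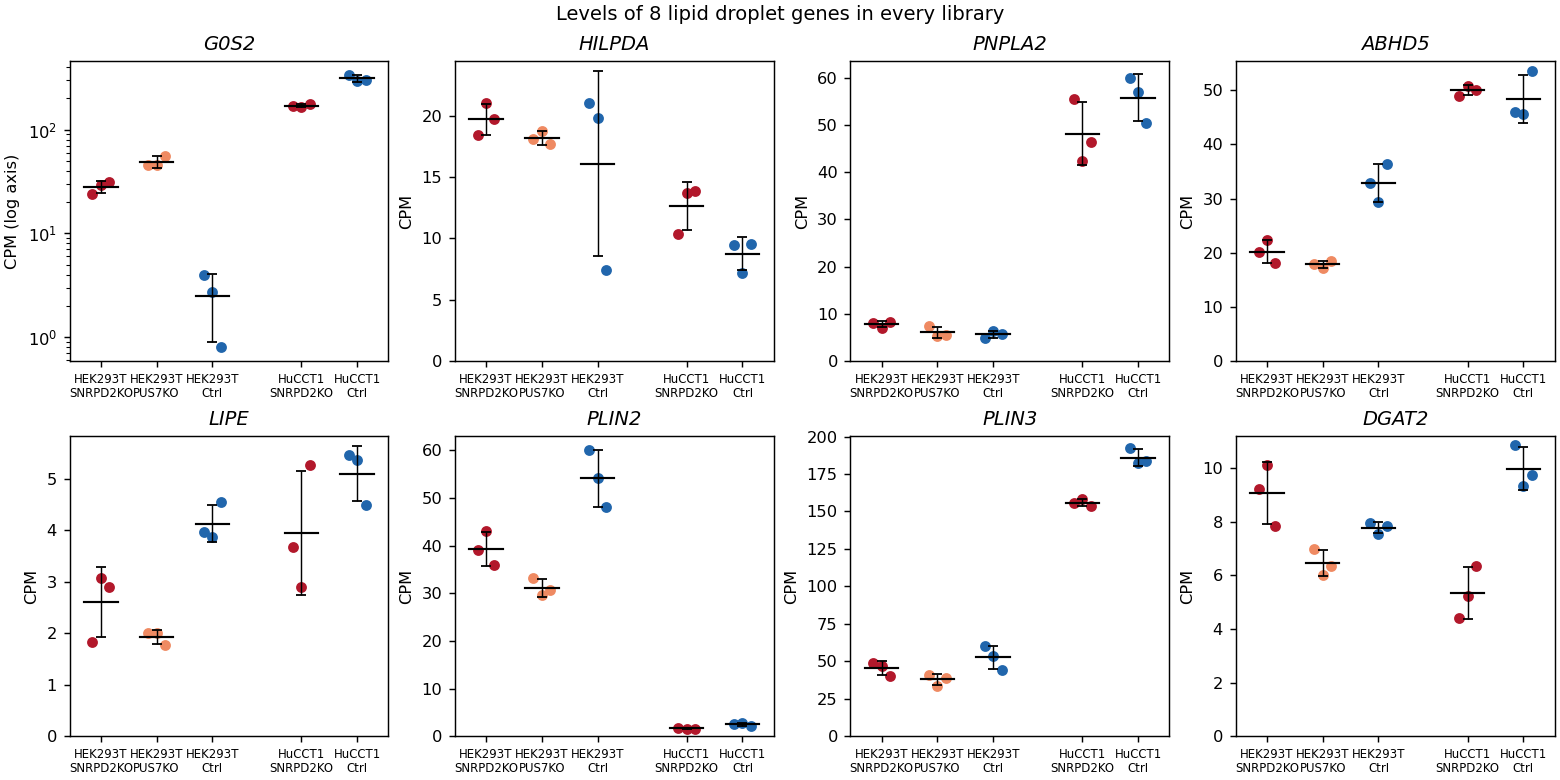
Levels of 8 lipid droplet genes in every library, in CPM (G0S2 on a log axis, the others on linear axes from 0). Points are libraries, black bars are group means and error bars are SD (n = 3). G0S2 lies at 23.8 to 56.2 CPM in the HEK293T libraries labelled SNRPD2KO or PUS7KO and at 0.796 to 3.97 CPM in HEK293T Ctrl, while in HuCCT1 the libraries labelled SNRPD2KO lie below Ctrl.

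G0S2 (ENSG00000123689.6, hg38 chromosome 1, 209675412 to 209676390, plus strand) was the member with the widest range. The libraries labelled HEK293T SNRPD2KO had 23.8, 29.1 and 31.4 CPM, those labelled PUS7KO 45.3, 45.7 and 56.2 CPM, and HEK293T Ctrl 3.97, 2.74 and 0.796 CPM. These values rest on 222, 265 and 368 counts in SNRPD2KO, 474, 547 and 540 in PUS7KO and only 37, 24 and 7 in Ctrl. The 3 groups did not overlap, and every library labelled PUS7KO was above every library labelled SNRPD2KO. The fitted log2 fold change was 3.47 (11.1-fold) for SNRPD2KO over Ctrl, 4.27 (19.3-fold) for PUS7KO over Ctrl and -0.80 for SNRPD2KO over PUS7KO. HEK293T Ctrl replicate 3 had the lowest level, and without it the first 2 values were 3.07 and 3.86. The 2 comparisons against Ctrl share the same 3 control libraries.

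HuCCT1 had the opposite order, at higher CPM. Its levels were 168, 165 and 177 CPM in the libraries labelled SNRPD2KO, against 338, 295 and 303 CPM in Ctrl, again without overlap. G0S2 was thus 1.84-fold lower in HuCCT1 SNRPD2KO than in HuCCT1 Ctrl (log2 fold change -0.88). The difference between the lines in the same contrast was -4.40 on the log2 scale (HuCCT1 minus HEK293T), and -3.99 without HEK293T Ctrl replicate 3. HSD11B1-AS1, an antisense gene that overlaps G0S2, had 16, 17 and 0 counts in all in HEK293T SNRPD2KO, PUS7KO and Ctrl, and 18 and 22 in HuCCT1 SNRPD2KO and Ctrl, beside 855, 1561 and 68 G0S2 counts in HEK293T and 8487 and 14210 in HuCCT1.

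The promoters of the inhibitor, of its target lipase and of the coat gene PLIN2 are shown because G0S2 and PLIN2 stood on opposite sides of Ctrl in HEK293T and PNPLA2 is the enzyme that G0S2 inhibits. Each is the 250 bases before the annotated start (RefSeq, GRCh38.p14), and capitals mark matches to 7 short motifs searched on both strands: TGATGNAA (core of the ATF4 and CEBP composite element), ACGTG (core of the hypoxia element), CACGTG (E-box, which holds ACGTG within it), AGGTCA (nuclear receptor half-site), TATAA (core of the TATA box), CCAAT (the box of that name) and GGGCGG (SP core). G0S2 is at chr1:209675162-209675411 (plus strand), PNPLA2 at chr11:818664-818913 (plus strand) and PLIN2 at chr9:19127493-19127742 (minus strand). The PLIN2 window lies inside the gene interval given for PLIN2 below, so its RefSeq start is not the outermost start of that interval.
G0S2: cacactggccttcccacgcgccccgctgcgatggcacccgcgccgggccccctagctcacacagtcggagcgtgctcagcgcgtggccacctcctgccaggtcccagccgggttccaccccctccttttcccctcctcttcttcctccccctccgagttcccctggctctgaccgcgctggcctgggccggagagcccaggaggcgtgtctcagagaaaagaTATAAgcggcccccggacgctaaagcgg
PNPLA2: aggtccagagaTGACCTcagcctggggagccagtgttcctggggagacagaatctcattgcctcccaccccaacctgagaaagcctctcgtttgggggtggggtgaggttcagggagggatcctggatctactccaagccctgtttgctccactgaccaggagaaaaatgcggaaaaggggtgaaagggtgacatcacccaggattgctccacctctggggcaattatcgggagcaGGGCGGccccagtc
PLIN2: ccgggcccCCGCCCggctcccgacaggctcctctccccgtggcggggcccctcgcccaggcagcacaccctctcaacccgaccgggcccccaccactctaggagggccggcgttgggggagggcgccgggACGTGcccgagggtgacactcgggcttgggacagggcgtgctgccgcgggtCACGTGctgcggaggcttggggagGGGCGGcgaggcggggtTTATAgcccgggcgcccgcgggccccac

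The G0S2 window matched TATAA alone, beginning 28 bases before the start, a motif held by 18.9% of all 35116 promoters searched over the same length. PNPLA2 matched AGGTCA on the opposite strand (12.1% of promoters) and GGGCGG (42.6%). PLIN2 matched ACGTG at 2 places (18.5% of promoters), of which one lies inside a CACGTG (6.34%), besides TATAA on the opposite strand and GGGCGG on both strands. These are matches of letters in 1 window, not sites of binding. Of the 9 members, 6 had a promoter entry. ABHD5, which had 3 windows, and PLIN3 matched GGGCGG, and PLIN3 also CCAAT (32% of promoters). LIPE had 2 windows, with CCAAT in each and GGGCGG in 1 of them. More windows allow more matches. TGATGNAA, found in 3.14% of promoters, was in none of those 6.

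HILPDA (chromosome 7, 128455849 to 128458418, plus strand), the inhibitor that is induced when oxygen is low, did not share the range of G0S2. Its levels were 18.5, 21.0 and 19.7 CPM in HEK293T SNRPD2KO, 18.1, 18.8 and 17.7 CPM in PUS7KO and 21.0, 19.9 and 7.39 CPM in Ctrl. A single Ctrl library, replicate 3, was low and the groups overlapped. The log2 fold changes, 0.29 and 0.18 against Ctrl, did not pass the test (edgeR adjusted p = 0.316 and 0.561), and without Ctrl replicate 3 they were -0.044 and -0.16. Only with no low-count filter did the SNRPD2KO value pass (0.37, edgeR adjusted p = 0.0387). In that library the sum of 11 hypoxia-induced genes, a list added after the values were seen, was also the lowest of its group, at 207 CPM beside 319 and 313 CPM, while the libraries labelled SNRPD2KO and PUS7KO held 196 to 221 CPM. Of the 9 hypoxia-induced genes tested in HEK293T, 1 rose and 4 fell in SNRPD2KO, and 2 rose and 4 fell in PUS7KO. Of all genes, 26.9% rose and 26.4% fell in SNRPD2KO, and 25.6% and 23.8% in PUS7KO. The part of the hypoxia-induced genes in the HILPDA values was not tested.

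In HuCCT1, HILPDA rose. The libraries labelled SNRPD2KO had 10.4, 13.7 and 13.9 CPM, against 9.47, 7.19 and 9.58 CPM in Ctrl. The groups did not overlap, and the log2 fold change was 0.53 ± 0.15 (SE; edgeR adjusted p = 0.0118). Without HuCCT1 Ctrl replicate 2 the call was lost (0.41, edgeR adjusted p = 0.0510). The summed hypoxia-induced genes were 667 to 676 CPM in SNRPD2KO and 685 to 704 CPM in Ctrl. Most of that sum was SLC2A1, at 422 ± 8.54 CPM in SNRPD2KO and 460 ± 3.23 in Ctrl (SD, n = 3 each). The median log2 fold change of the list was 0.27, beside 0.00 for all genes. Of these 11 genes, 6 rose and 3 fell, where 28.8% and 28.4% of all genes did. Both inhibitors of PNPLA2 thus differed between the HuCCT1 groups, G0S2 lower and HILPDA higher in SNRPD2KO.

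PNPLA2 (chromosome 11, 818914 to 825573, plus strand) encodes the triglyceride lipase itself. In HEK293T it had 8.15, 7.04 and 8.36 CPM in the libraries labelled SNRPD2KO, 7.45, 5.26 and 5.62 CPM in PUS7KO and 4.93, 6.28 and 5.80 CPM in Ctrl. Each SNRPD2KO library was above each Ctrl library, and PUS7KO overlapped both. The log2 fold change of SNRPD2KO over Ctrl was 0.47 ± 0.19 (SE; edgeR adjusted p = 0.0455). This call was lost in 10 of 20 alternative fits, and removing the trend with GC content left 0.12 (edgeR adjusted p = 0.615); PNPLA2 exons hold 64.5% GC, and the fold changes of all genes tracked GC content in this comparison (Spearman rho 0.36 across genes, which are not independent replicates). PUS7KO over Ctrl gave 0.11 (edgeR adjusted p = 0.671), and SNRPD2KO over PUS7KO 0.37 (edgeR adjusted p = 0.258).

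HuCCT1 had 55.6, 42.4 and 46.5 CPM in SNRPD2KO and 60.0, 57.0 and 50.3 CPM in Ctrl of PNPLA2. The groups overlapped through SNRPD2KO replicate 1, and the log2 fold change of -0.21 missed the threshold (edgeR adjusted p = 0.0913; 95% interval -0.43 to 0.01). It passed without that library (-0.33, edgeR adjusted p = 0.00578) and with the GC trend removed (-0.33, edgeR adjusted p = 0.00715). The response to SNRPD2KO differed between the lines by -0.74 ± 0.20 on the log2 scale (HuCCT1 minus HEK293T; SE; edgeR adjusted p = 0.00560).

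ABHD5 (chromosome 3, 43690108 to 43734371, plus strand), whose product activates PNPLA2, fell in HEK293T. Its levels were 20.1, 22.4 and 18.2 CPM in SNRPD2KO, 18.0, 17.2 and 18.4 CPM in PUS7KO and 32.8, 29.5 and 36.4 CPM in Ctrl. All 6 libraries labelled as knockouts were below all 3 Ctrl libraries. The log2 fold change was -0.70 ± 0.11 in SNRPD2KO and -0.88 ± 0.11 in PUS7KO (SE; edgeR adjusted p = 7.1e-05 and 1.0e-05). ABHD5 has the lowest GC content of the members, 37.5%, and with the GC trend removed the SNRPD2KO value was -0.24 (edgeR adjusted p = 0.113), while PUS7KO kept its call. ANO10, on the other strand over the same stretch, had 1102, 1075 and 1014 counts in all in SNRPD2KO, PUS7KO and Ctrl.

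In HuCCT1 the ABHD5 levels overlapped, at 49.0, 50.9 and 50.0 CPM in SNRPD2KO and 45.9, 45.7 and 53.6 CPM in Ctrl. The log2 fold change was 0.05, with a 95% interval of -0.11 to 0.21 (edgeR adjusted p = 0.601), an interval that excludes the HEK293T values. The difference between the lines was 0.71 ± 0.14 (log2, HuCCT1 minus HEK293T; SE; edgeR adjusted p = 0.000412), and 0.19 with the GC trend removed (edgeR adjusted p = 0.321).

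LIPE (chromosome 19, 42401514 to 42427388, minus strand), the diglyceride lipase, was the least abundant of the tested members in HEK293T per kilobase of exon. It had 1.82, 3.08 and 2.90 CPM in SNRPD2KO, 2.01, 2.00 and 1.77 CPM in PUS7KO and 3.97, 3.88 and 4.55 CPM in Ctrl. Every Ctrl library was above every library labelled SNRPD2KO or PUS7KO. The log2 fold change was -0.66 in SNRPD2KO (edgeR adjusted p = 0.0395) and -1.09 in PUS7KO (edgeR adjusted p = 0.00266), and the SNRPD2KO call was lost in 12 of 20 alternative fits. LIPE-AS1, an antisense gene over LIPE, moved the other way, with 201, 229 and 79 counts in all in SNRPD2KO, PUS7KO and Ctrl. The sources used here do not say whether counting used the strand, without which reads of the 2 genes cannot be told apart. HuCCT1 had 3.67, 2.91 and 5.28 CPM of LIPE in SNRPD2KO and 5.46, 5.36 and 4.49 CPM in Ctrl, with overlap and no call (log2 fold change -0.38, edgeR adjusted p = 0.178). It passed without SNRPD2KO replicate 3, the highest of its group (-0.62, edgeR adjusted p = 0.0348).

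Both coat genes had lower means than Ctrl in each comparison, and 5 of these 6 differences passed the test. Of all genes, 26.4% were called lower in HEK293T SNRPD2KO, 23.8% in PUS7KO and 28.4% in HuCCT1 SNRPD2KO. The HEK293T comparisons share their Ctrl libraries. PLIN2 (chromosome 9, 19108375 to 19149290, minus strand) encodes the main perilipin of droplets outside fat. Its levels were 39.1, 43.0 and 35.9 CPM in HEK293T SNRPD2KO, 33.1, 29.6 and 30.6 CPM in PUS7KO and 60.0, 54.2 and 48.2 CPM in Ctrl. The 3 groups did not overlap, with PUS7KO lowest. PLIN2 fell by 0.46 in SNRPD2KO and by 0.80 in PUS7KO on the log2 scale (edgeR adjusted p = 0.00114 and 1.0e-05), and both calls held under all 20 alternatives. The direct difference, 0.34 for SNRPD2KO over PUS7KO, missed the threshold (edgeR adjusted p = 0.0732), and passed it without SNRPD2KO replicate 3 (0.41, edgeR adjusted p = 0.0254).

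HuCCT1 had little PLIN2 RNA, 1.78, 1.54 and 1.53 CPM in SNRPD2KO and 2.54, 2.80 and 2.17 CPM in Ctrl. Although the groups did not overlap and the log2 fold change of -0.63 passed the test (edgeR adjusted p = 0.0379), the call was lost in 10 of 16 alternative fits, 5 of them with a library left out. The difference between the lines missed the threshold (-0.22, edgeR adjusted p = 0.450; 95% interval -0.67 to 0.23).

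PLIN3 (chromosome 19, 4838341 to 4867694, minus strand), a perilipin that moves between the cytosol and new droplets, had 48.9, 47.1 and 40.0 CPM in HEK293T SNRPD2KO, 40.8, 33.6 and 39.1 CPM in PUS7KO and 59.9, 53.4 and 44.3 CPM in Ctrl. PUS7KO lay below Ctrl without overlap and fell by 0.48 on the log2 scale (edgeR adjusted p = 0.00311). SNRPD2KO overlapped Ctrl, at -0.22 (edgeR adjusted p = 0.131), but passed the test with the GC trend removed (-0.49, edgeR adjusted p = 0.000642) or without Ctrl replicate 3 (-0.32, edgeR adjusted p = 0.0329). In HuCCT1, PLIN3 was the most abundant member after G0S2 per kilobase. Its 156, 158 and 154 CPM in SNRPD2KO stood below 192, 182 and 184 CPM in Ctrl, a fall of 0.25 on the log2 scale (edgeR adjusted p = 0.00123), a change as small as 1.19-fold.

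DGAT2 (chromosome 11, 75759512 to 75801535, plus strand), which makes triglyceride at the endoplasmic reticulum and on droplets, behaved differently in the lines. HEK293T had 9.23, 10.1 and 7.85 CPM in SNRPD2KO, 6.97, 6.01 and 6.35 CPM in PUS7KO and 7.93, 7.54 and 7.84 CPM in Ctrl. SNRPD2KO overlapped Ctrl while PUS7KO lay below both, yet neither log2 fold change against Ctrl passed the test (0.22 and -0.27; edgeR adjusted p = 0.274 and 0.186), nor did SNRPD2KO over PUS7KO (0.49, edgeR adjusted p = 0.0895). In HuCCT1, DGAT2 fell: 4.42, 5.22 and 6.36 CPM in SNRPD2KO against 10.9, 9.32 and 9.72 CPM in Ctrl, a log2 fold change of -0.91 ± 0.16 (SE; edgeR adjusted p = 0.000560) called in all 16 alternative fits. The lines differed by -1.17 ± 0.23 (log2, HuCCT1 minus HEK293T; SE; edgeR adjusted p = 0.000547).

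DGAT1 (chromosome 8, 144314584 to 144326910, minus strand), the other triglyceride synthase, was listed at 0 counts in all 9 HEK293T libraries, and was not analysed in HuCCT1. Of 12 protein-coding genes within 100 kb on either side, 7 had no count either. HSF1 and CPSF1, which all cells use, had 4 and 2 counts over the 9 libraries, so a listed 0 here is no measure of expression.

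**Figure D2:**
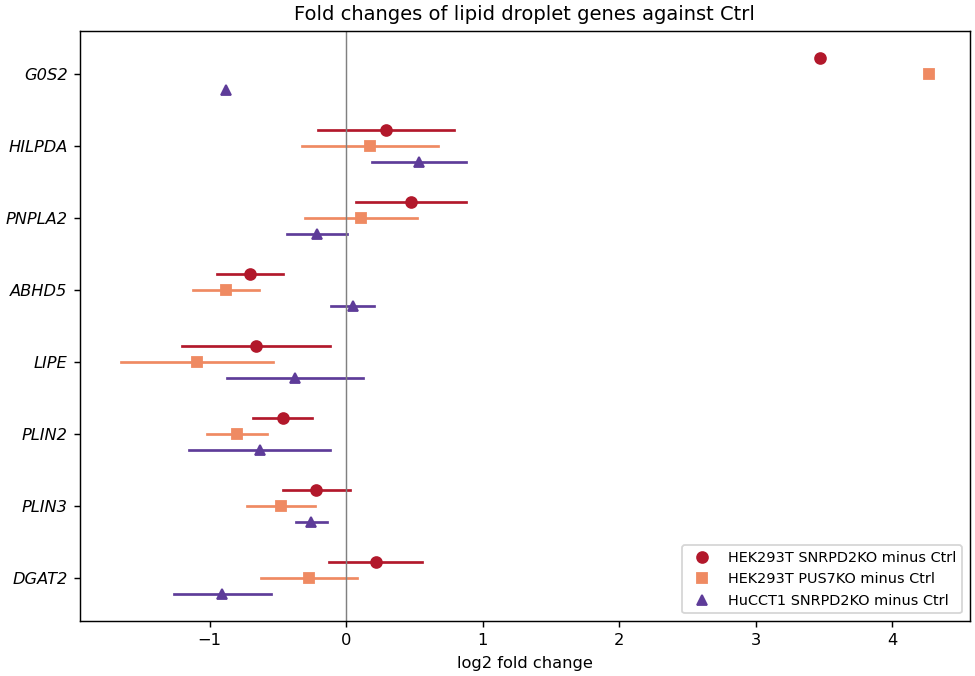
Log2 fold changes against Ctrl for each member (positive values are higher in the group named first). Bars are 95% confidence intervals from the edgeR fit; G0S2, chosen for its values, has none. G0S2 stands at 3.47 and 4.27 in HEK293T and -0.88 in HuCCT1, and every other member lies between -1.09 and 0.53.

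Of the 7 tested members other than G0S2, 1 rose and 3 fell in HEK293T SNRPD2KO, where 53.3% of all 15882 genes tested were called (26.9% higher and 26.4% lower). In PUS7KO, 0 rose by edgeR, limma voom, DESeq2 or an unadjusted p under 0.05 and 4 fell, against 25.6% and 23.8% of all genes (49.4% in either direction). In HuCCT1, 1 rose and 3 fell, against 28.8% and 28.4% of 15007 genes (57.2% in either direction). The members' total of 4 in each is thus near the share called among all genes. Groups did not overlap for 4, 5 and 4 of the 7 members in the 3 comparisons, against 59.5%, 57.2% and 63.5% of all genes. Their median log2 fold change was -0.22, -0.48 and -0.25, where that of all genes was 0.02, 0.01 and 0.00. Between SNRPD2KO and PUS7KO 0 of the 7 were called by edgeR, limma voom or DESeq2, with 3 at an unadjusted p under 0.05 (PLIN2, PLIN3 and DGAT2). Of all genes, 4.77% were called there, 1.57% higher and 3.20% lower, and the groups did not overlap for 25.2% of all genes and for 2 of the 7 members. For the difference between lines, 1 was called higher and 2 lower, against 19.8% and 20.9% of 17617 genes (40.7% in either direction).

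Levels between genes were compared as CPM per kilobase of exon. In HEK293T Ctrl, PLIN3 stood highest at 18.7 ± 2.79 CPM per kilobase, followed by PLIN2 (10.6 ± 1.16), HILPDA (7.77 ± 3.65), ABHD5 (4.35 ± 0.458), G0S2 (2.89 ± 1.85), PNPLA2 (1.48 ± 0.178), DGAT2 (0.983 ± 0.0263) and LIPE (0.794 ± 0.0694), all SD with n = 3. The replicate ranges overlapped between HILPDA and each of PLIN2 and ABHD5, and between G0S2 and each of HILPDA, ABHD5, PNPLA2 and DGAT2, so the place of G0S2 in this order is loose. In the libraries labelled SNRPD2KO and PUS7KO, G0S2 was the top member, at 32.5 ± 4.49 and 56.6 ± 7.16 CPM per kilobase, with PLIN3 next at 16.1 ± 1.67 and 13.5 ± 1.33.

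HuCCT1 had another order. G0S2 led at 196 ± 6.91 CPM per kilobase in SNRPD2KO and 360.2 ± 26.7 in Ctrl, followed by PLIN3 (55.4 ± 0.858 and 66.1 ± 1.97) and PNPLA2 (12.5 ± 1.75 and 14.5 ± 1.29), while PLIN2 was last (0.318 ± 0.0276 and 0.492 ± 0.0625). CPM levels of the 2 lines were scaled separately, so ratios within a library are the comparable quantity.

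**Figure D3:**
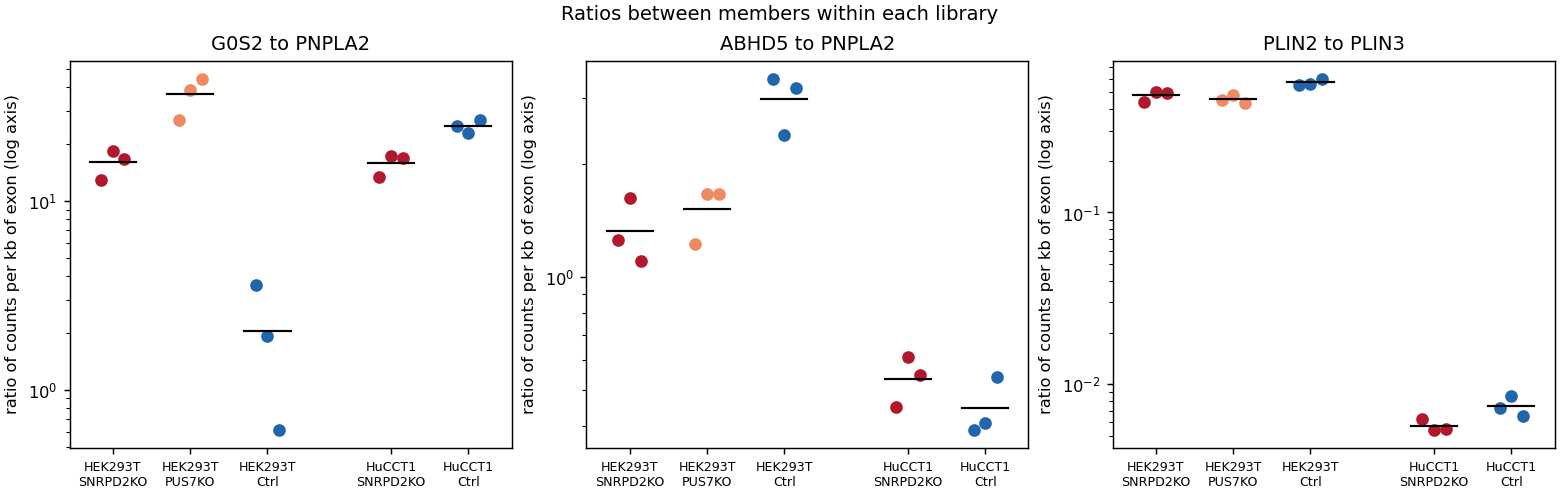
Ratios between members within each library, computed from counts per kilobase of exon (log axes). Points are libraries and bars are means (n = 3). G0S2 to PNPLA2 lies below 4 in the 3 HEK293T Ctrl libraries and above 12 in the other 12 libraries, and PLIN2 to PLIN3 separates the lines.

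The ratio of the inhibitor G0S2 to its lipase PNPLA2 was 16.0 ± 2.77 in HEK293T SNRPD2KO, 36.6 ± 8.86 in PUS7KO and 2.04 ± 1.48 in HEK293T Ctrl (SD, n = 3 each). In HuCCT1 it was 15.8 ± 2.13 in SNRPD2KO and 24.9 ± 1.86 in Ctrl. HEK293T SNRPD2KO, with 13.0 to 18.4, and HuCCT1 SNRPD2KO, with 13.4 to 17.3, covered the same range although their Ctrl groups stood far apart. The co-activator's ratio, ABHD5 to PNPLA2, was 1.33 ± 0.266 in HEK293T SNRPD2KO, 1.52 ± 0.254 in PUS7KO and 2.99 ± 0.530 in Ctrl, and 0.536 ± 0.0811 and 0.446 ± 0.0830 in HuCCT1 SNRPD2KO and Ctrl. PLIN2 to PLIN3 was 0.481 ± 0.0346, 0.456 ± 0.0273 and 0.572 ± 0.0254 in the HEK293T groups in the same order. It was 0.00573 ± 0.000501 in HuCCT1 SNRPD2KO and 0.00745 ± 0.000994 in HuCCT1 Ctrl. The coat RNA of HuCCT1 was therefore almost all PLIN3, and that of HEK293T a mixture. These ratios contain G0S2 or were formed with the members known and carry no test. They are not corrected for GC content. ABHD5 to PNPLA2 sets the member of lowest GC content, 37.5%, over that of highest, 64.5%. Fold changes of all genes against Ctrl tracked GC content in HEK293T SNRPD2KO (Spearman rho 0.36) and PUS7KO (0.18). The part of this in the ratio was not tested.

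**Figure D4:**
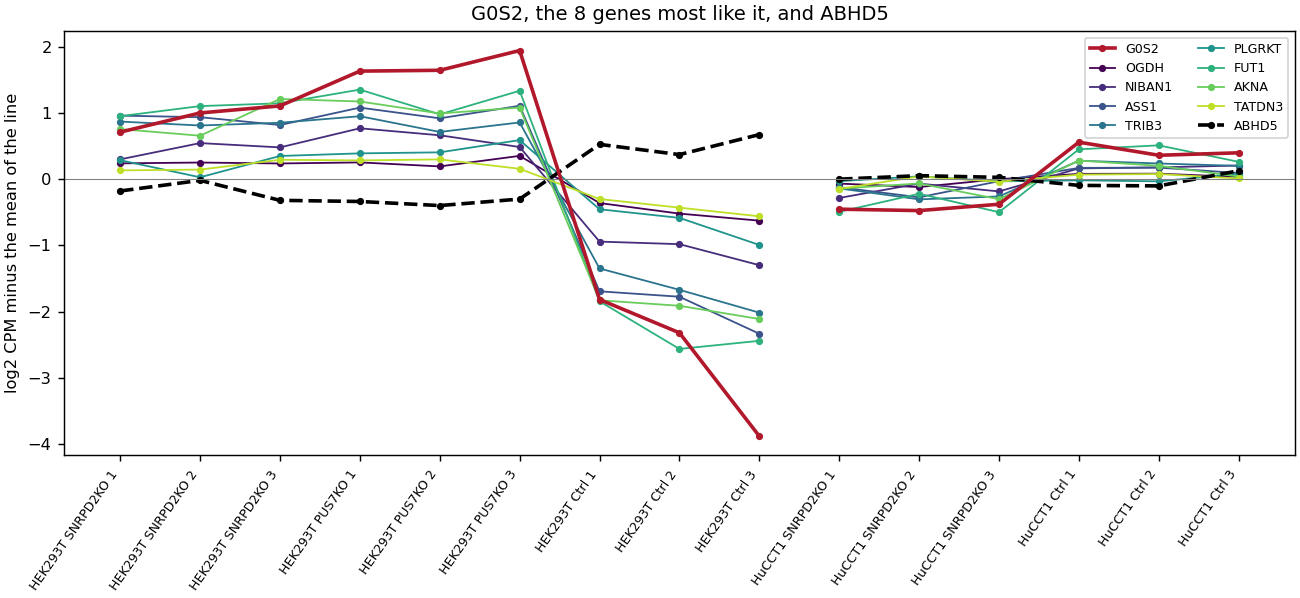
Log2 CPM minus the mean of its line, in each library, for G0S2 (red), the 8 genes with the highest Pearson correlation to it and ABHD5 (dashed). The 8 genes are high in the libraries labelled SNRPD2KO and PUS7KO in HEK293T, low in HEK293T Ctrl and change less in HuCCT1, and ABHD5 runs the other way in HEK293T.

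Among 12707 genes tested in both lines, those whose log2 CPM followed G0S2 most closely over the 15 libraries were OGDH (r = 0.977), NIBAN1 (0.977), ASS1 (0.974), TRIB3 (0.973), PLGRKT (0.967), FUT1 (0.965), AKNA (0.964) and TATDN3 (0.963). Values were centred on each line, and the points share libraries, depth and the group structure, so r is a description. OGDH is a subunit of a citric acid cycle enzyme, ASS1 makes the precursor of arginine, TRIB3 is a pseudokinase of the stress response, and FUT1 a fucosyltransferase. FUT1 came nearest to G0S2 in size, with log2 fold changes of 3.48, 3.64 and -0.82 in HEK293T SNRPD2KO, HEK293T PUS7KO and HuCCT1 SNRPD2KO against Ctrl. TRIB3 had 2.50, 2.50 and -0.47. Within HuCCT1 alone r was 0.973 for TRIB3 but 0.143 for PLGRKT.

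None of the other members was near the top of that order over the 15 libraries. HILPDA ranked 3490 and PNPLA2 3953 of 12707, and ABHD5 stood at rank 12687, near the far end, with r = -0.945. DGAT2 ranked 6033, PLIN3 9562, PLIN2 10163 and LIPE 11213. Within HuCCT1 alone the picture was another. There r was 0.985 for PLIN3 (above the 0.973 of TRIB3), 0.964 for DGAT2, 0.907 for PLIN2, 0.665 for LIPE and 0.652 for PNPLA2. It was -0.346 for ABHD5 and -0.758 for HILPDA. These values rest on 6 libraries and their group structure.

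**Figure D5:**
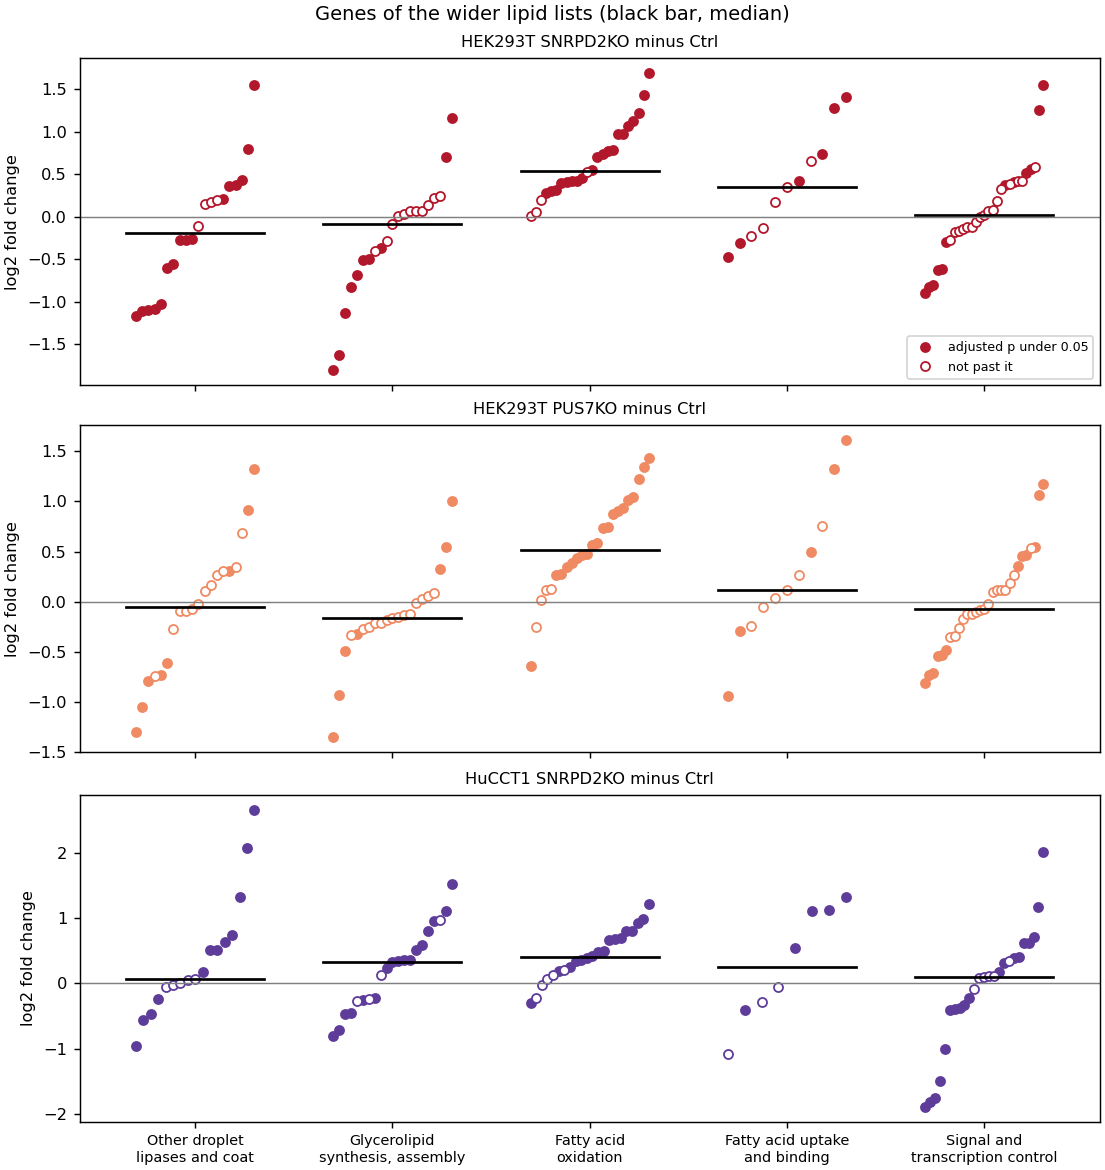
Log2 fold changes against Ctrl of every tested gene in 5 wider lists (filled, edgeR adjusted p under 0.05; open, not past it; black bar, list median). Fatty acid oxidation has medians of 0.53, 0.52 and 0.41 in HEK293T SNRPD2KO, HEK293T PUS7KO and HuCCT1 SNRPD2KO, and the other lists spread to both sides of 0.

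Genes of fatty acid oxidation, which uses what lipolysis releases, rose more often than they fell in all 3 comparisons with Ctrl. In HEK293T SNRPD2KO, 20 of 24 tested genes rose, with 26.9% of all genes called higher; 0 fell by edgeR, limma voom or DESeq2, and all 24 fold changes were above 0. In PUS7KO, 19 of 24 rose and 1 fell (25.6% and 23.8% of all genes), and in HuCCT1 SNRPD2KO 16 of 22 rose and 1 fell (28.8% and 28.4% of all genes). The medians, 0.53, 0.52 and 0.41, stand beside 0.02, 0.01 and 0.00 for all genes. ECI1, an isomerase for unsaturated fatty acids, averaged 66.7 ± 9.46 CPM in HEK293T SNRPD2KO, 56.1 ± 7.44 in PUS7KO and 20.7 ± 1.15 in Ctrl (log2 fold change 1.69 and 1.44). ACADS, the dehydrogenase for short chains, rose by 1.43 and 1.34 on the log2 scale in the same comparisons and by 0.93 in HuCCT1. ETFB, part of the flavoprotein that takes electrons from these dehydrogenases, rose by 1.22 and 1.23 in HEK293T, HADH, the dehydrogenase of a later step, by 1.13 in HEK293T SNRPD2KO, and ACAD11, another acyl-CoA dehydrogenase, by 1.04 in PUS7KO. ACADVL, its counterpart for very long chains, averaged 126 ± 3.70 CPM in HuCCT1 SNRPD2KO and 63.9 ± 4.42 in HuCCT1 Ctrl (0.98). CPT1C, a relative of the carnitine transferase CPT1A, rose by 1.22 in HuCCT1 from 57 counts in all in SNRPD2KO and 22 in Ctrl, and ETFDH, which passes the electrons on, by 0.80. Between the lines 0 of 23 genes were higher in the HuCCT1 response (also 0 by limma voom, DESeq2 or an unadjusted p under 0.05) and 7 were lower, against 19.8% and 20.9% of all genes; ECI1 had the largest called difference (-1.04, edgeR adjusted p = 7.4e-05).

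Other droplet lipases, coat genes and regulators moved in both directions. In HEK293T SNRPD2KO 6 of 20 rose and 10 fell, in PUS7KO 3 rose and 5 fell, and in HuCCT1 8 of 17 rose and 4 fell. All genes were called at 53.3%, 49.4% and 57.2% in these comparisons, so 8 of 20 in PUS7KO is no more than that background. PNPLA4, a relative of PNPLA2, rose by 1.54 and 1.33 (log2) in the 2 HEK293T comparisons, to 33.7 ± 2.76 and 29.1 ± 4.76 CPM against 11.5 ± 2.10 in Ctrl. LIPA, the acid lipase of the lysosome, rose by 0.91 in PUS7KO and by 1.33 in HuCCT1, where it had 96.2 ± 2.27 CPM in SNRPD2KO and 38.3 ± 3.64 in Ctrl. PNPLA3, a droplet protein linked to fatty liver, rose by 2.08 in HuCCT1. UBXN8, in the family of ubiquitin regulators, fell in each of the 3 (-1.11, -1.30 and -0.97), and RAB18, a droplet GTPase, and HSD17B11, a droplet dehydrogenase, fell by 1.16 and 1.10 in HEK293T SNRPD2KO. PNPLA7, a lysophospholipase, fell by 1.05 in PUS7KO, with 29 counts in all against 51 in Ctrl. PLIN4, a perilipin typical of fat cells, rose by 2.67 in HuCCT1 from few reads, 44 counts in all in SNRPD2KO and 6 in Ctrl, and had the largest called difference between the lines in this list (3.64).

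Genes of glycerolipid synthesis and droplet assembly fell more often than they rose in HEK293T and rose more often in HuCCT1. In HEK293T SNRPD2KO 2 of 21 rose and 8 fell, in PUS7KO 3 rose and 4 fell, and in HuCCT1 11 of 21 rose and 6 fell. Of all genes, 26.9% rose and 26.4% fell in HEK293T SNRPD2KO, 25.6% and 23.8% in PUS7KO and 28.8% and 28.4% in HuCCT1, so the 7 of 21 called in PUS7KO are fewer than the 49.4% of all genes. The test of the difference called 9 of 22 higher and 2 lower in the HuCCT1 response, where 19.8% and 20.9% of all genes were. ACSL6, which activates fatty acids, had 35 counts in all in HEK293T SNRPD2KO and 111 in Ctrl and fell by 1.81 (log2). BSCL2 (seipin), which shapes forming droplets, fell by 1.63 and 1.35 in SNRPD2KO and PUS7KO, from few reads (17, 22 and 48 counts in all in SNRPD2KO, PUS7KO and Ctrl). GPAM, the mitochondrial enzyme of the first step of glycerolipid synthesis, fell by 1.13 and 0.94 (log2) in HEK293T SNRPD2KO and PUS7KO, and FITM2, which helps droplets form, rose by 1.16 and 1.01. AGPAT1, an acyltransferase of the next step, rose by 0.54 in PUS7KO. ACSL3, which activates fatty acids at growing droplets, had 163 ± 5.64 CPM in HuCCT1 SNRPD2KO and 56.5 ± 5.14 in HuCCT1 Ctrl (1.53, edgeR adjusted p = 3.7e-08), and differed between the lines by 1.85. ACSL5, its relative, had a larger difference that rests on 1 count in all in HEK293T SNRPD2KO and 40 in HEK293T Ctrl, beside 3122 in HuCCT1 SNRPD2KO and 2415 in HuCCT1 Ctrl. LPIN1 and LPIN3, which make diglyceride, rose by 1.10 and 0.96 in HuCCT1, and LDAF1, the partner of seipin, fell by 0.81.

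Uptake and binding genes gave 4 rising and 2 falling of 11 in HEK293T SNRPD2KO, 3 and 2 in PUS7KO and 4 and 1 of 8 in HuCCT1, totals near the 53.3%, 49.4% and 57.2% called among all genes. LPL, the lipase that frees fatty acids outside cells, had 4.14 ± 0.276 CPM in SNRPD2KO, 5.26 ± 0.304 in PUS7KO and 1.71 ± 0.714 in HEK293T Ctrl (log2 fold change 1.27 and 1.61). The transporter gene SLC27A5 rose by 1.41 and 1.33 in HEK293T and by 0.55 in HuCCT1, and its relatives SLC27A4 and SLC27A2 by 0.74 in HEK293T SNRPD2KO and by 0.50 in PUS7KO in that order. ACBD3, a Golgi protein with an acyl-CoA binding domain, fell by 0.48 in HEK293T SNRPD2KO. FABP3, a fatty acid carrier, fell by 0.94 in PUS7KO and rose by 1.12 in HuCCT1, where SLC27A1 rose by 1.33 and DBI, which binds acyl-CoA, by 1.12. DBI had the largest called difference between the lines in this list (1.38).

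Among genes that control lipolysis through signals or transcription, 6 of 29 rose and 6 fell in HEK293T SNRPD2KO, the same counts held in PUS7KO, and 9 of 25 rose and 10 fell in HuCCT1. The 12 of 29 called in each HEK293T comparison are fewer than the 53.3% and 49.4% of all genes, and the 19 of 25 in HuCCT1 more than the 57.2% there; neither was tested. SREBF1, the transcription factor of lipid synthesis, rose in all 3, by 1.54 and 1.06 in HEK293T and by 2.02 in HuCCT1, where it had 92.0 ± 2.42 CPM in SNRPD2KO and 22.7 ± 0.907 in Ctrl. NR1H3, the liver X receptor that acts on SREBF1, rose by 1.25 and 1.18 in HEK293T. SIRT1, a deacetylase, and HIF1A, the oxygen-sensing factor, fell by 0.89 and 0.83 in HEK293T SNRPD2KO, and the transcription factors FOXO1 and PPARD fell by 0.81 and 0.73 in PUS7KO. The phosphodiesterases PDE4D and PDE4B, which break down the cyclic AMP that stimulates lipolysis, fell by 1.81 and 1.75 in HuCCT1. PDE4A, of the same family and picked out after its values were seen, rose there by 0.62, with 19.2 ± 0.278 CPM in SNRPD2KO and 12.5 ± 0.574 in Ctrl. TFEB, a factor of lysosome genes, fell by 1.89 in HuCCT1, with 16 counts in all in SNRPD2KO and 55 in Ctrl. Between the lines MLXIPL, a glucose-responsive factor, had the largest called difference of this list, which rests on 22 counts in all in HuCCT1 SNRPD2KO and 2 in HuCCT1 Ctrl, followed by TFEB (-2.35).

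Between SNRPD2KO and PUS7KO, 7 genes of the 5 lists passed the edgeR threshold. They were 1 of 20 droplet genes, 2 of 21 of glycerolipid synthesis, 2 of 24 of oxidation, 1 of 11 of uptake and 1 of 29 of control. Of all genes, 4.77% were called, a count that ranged from 22 to 1891 genes with single libraries left out. Fold changes of all genes tracked GC content more closely here than against Ctrl (Spearman rho 0.49 across genes, which are not independent replicates). Far fewer genes passed with the GC trend removed. The part of GC content in these 7 differences was not tested. AUP1 (0.38), ACAA1 (0.70), ECHS1 (0.45), SLC27A4 (0.47) and PRKAR1B (0.86) were higher in SNRPD2KO, and ACSL6 (-1.65) and ACSL4 (-0.71) were lower.

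Of the genes that control lipolysis, ATF4 and its target DDIT3 were picked out after their values were seen, because TRIB3, another target of ATF4, was among the genes most like G0S2. ATF4 changed by 0.55, 0.46 and -0.41 (log2) and DDIT3 by 0.37, 0.54 and -0.998 in HEK293T SNRPD2KO, HEK293T PUS7KO and HuCCT1 SNRPD2KO against Ctrl, each past the edgeR threshold. Their signs are those of G0S2 in each comparison, and the HEK293T comparisons share their Ctrl libraries. Of all genes, 53.3%, 49.4% and 57.2% were called in these comparisons. A link of ATF4 or DDIT3 to G0S2 was not tested. The G0S2 window printed above holds no match to TGATGNAA, from which nothing follows about ATF4.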

How the data were processed

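Total RNA was extracted with TRIzol, depleted of ribosomal RNA with a stranded Illumina kit and sequenced on a HiSeq2000, per the labels' protocols. The authors deposited whole-number read counts per gene, without normalization, in 1 table per line on hg38. Per the submitters' processing notes, cutadapt 4.2, HISAT2 2.2.1 and RSEM were used; their roles, the annotation release and the strand setting are not given in the sources used here. RSEM estimates can be fractional, but the deposited counts are whole.

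Each line was fitted in R 4.3.3 with edgeR 4.0.16 (TMM factors, default filter with minimum count 10 and minimum total 15, quasi-likelihood F test), over all genes, with all 9 HEK293T or 6 HuCCT1 libraries. The difference between lines was an interaction term over the 12 SNRPD2KO and Ctrl libraries. p-values are two-sided and Benjamini-Hochberg adjusted over all genes tested, with the threshold at 0.05. Levels are TMM-scaled CPM, and log2 CPM used a prior count of 2. Exon lengths and GC content came from GENCODE 29 and promoters from RefSeq. A count of 0 allows up to 3 counts, or 0.172 to 0.343 CPM in single libraries, counting error only. Between replicates the spread exceeded counting error (chi-square per degree of freedom 3.70 to 14.8), and no pair agreed within it. The biological coefficient of variation was 10.8% in HEK293T and 10.1% in HuCCT1.

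The members and lists were chosen with earlier results of these data known. Named were all members, the 8 genes most like G0S2 and, per wider list, the 4 called genes with the largest changes in each comparison with Ctrl, all called between SNRPD2KO and PUS7KO and the largest between the lines; exceptions are stated. Alternatives were other scalings (RLE, upper quartile, protein-coding genes alone), other filters, limma voom 3.58.1, DESeq2 1.42.0, adjusted p under 0.01, a replicate block, removal of the GC trend, the 2 groups alone, and leaving out each library. The fits were also run on simulated data in which few genes changed and no GC trend was put in. That setting is unlike these libraries, so the run does not vouch for the calls here.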

Additional observations from a re-analysis of the deposited data

Results flagged for a closer look

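The response to SNRPD2KO differed between HuCCT1 and HEK293T for 3 of the 7 members tested, where 40.7% of all genes were called, and G0S2, chosen for its values, is added without a test. Differences are HuCCT1 minus HEK293T on the log2 scale. For G0S2 the difference was -4.40, and it was not tested: all 3 HuCCT1 SNRPD2KO libraries lay below all 3 HuCCT1 Ctrl libraries, and all 3 HEK293T SNRPD2KO libraries above all 3 HEK293T Ctrl libraries. The interaction term was past the edgeR threshold for PNPLA2 at -0.74 (adjusted p = 0.00560), for ABHD5 at 0.71 (adjusted p = 0.000412; 0.19 and 0.321 with the GC trend removed) and for DGAT2 at -1.17 (adjusted p = 0.000547). The lines also differ in depth and in the share of counts on protein-coding genes, 61.7 to 68.8% in HEK293T and 93.6 to 95.3% in HuCCT1; the part of this in the differences was not tested.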

How the results depend on the processing

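For SNRPD2KO minus PUS7KO in HEK293T, 758 genes passed the edgeR threshold. That count became 1292 without the low-count filter, 107 with the GC trend removed, 31 at adjusted p under 0.01 and 464 with the 2 groups alone, and ranged from 22 (without SNRPD2KO replicate 1) to 1891 (without SNRPD2KO replicate 3) when single libraries were left out. Members called in HEK293T SNRPD2KO minus Ctrl numbered 4, and 2 with DESeq2 or at adjusted p under 0.01; leaving out libraries gave 2 to 4, with 2 without SNRPD2KO replicate 1 or 3 or Ctrl replicate 1. Members called in HuCCT1 numbered 4, 2 at adjusted p under 0.01, and 2 to 4 with a library left out (2 without Ctrl replicate 2). Between SNRPD2KO and PUS7KO that range was 0 to 2 (2, PLIN2 and DGAT2, without SNRPD2KO replicate 3). By Spearman rho, 5 of the 8 genes most like G0S2 were the same.

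Reversed signs, none past the threshold, were PNPLA2 in PUS7KO (-0.046 with the GC trend removed, -0.044 without PUS7KO replicate 1), HILPDA without HEK293T Ctrl replicate 3 (-0.044 in SNRPD2KO, -0.16 in PUS7KO) and ABHD5 in HuCCT1 (-0.049 with the GC trend removed). Leaving out libraries, these spanned -0.044 to 0.22 for PNPLA2 in PUS7KO, and for HILPDA -0.044 to 0.53 in SNRPD2KO and -0.16 to 0.42 in PUS7KO. Reversed between the lines were PLIN3 (0.13 with the GC trend removed, -0.19 to 0.025 over libraries left out), HILPDA (-0.047 to 0.54) and LIPE (-0.023 to 0.41), the reversals being without HEK293T Ctrl replicate 3, HEK293T Ctrl replicate 1 and HuCCT1 SNRPD2KO replicate 3 in that order. The cause was not tested. Removing the filter moved the median log2 fold change of all genes to -0.19 and -0.14 in HEK293T SNRPD2KO and PUS7KO.

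Samples with the same replicate number did not deviate together (correlations -0.086 to 0.044). Those with different numbers gave -0.089 to 0.127. The replicate numbers thus gave no sign of pairing, which 3 libraries per group cannot exclude. With a replicate block, 8320, 7674 and 560 genes were called in the 3 HEK293T comparisons (SNRPD2KO minus Ctrl, PUS7KO minus Ctrl, SNRPD2KO minus PUS7KO), 8346 in HuCCT1 and 6933 between the lines; PNPLA2 in HEK293T SNRPD2KO (adjusted p = 0.0640) and PLIN2 in HuCCT1 (0.0677) then missed the threshold, and PNPLA2 in HuCCT1 passed it (0.0417). G0S2 kept its direction in every alternative run. Depth limits LIPE, PLIN2 in HuCCT1 and G0S2 in HEK293T Ctrl, with 7 to 37 counts in the last.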
